A study of Mus musculus with 2 samples.

Results

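In heart valves of mice at postnatal day 30 (P30), 470 cell barcodes combined matrix transcripts with transcripts of Rgs5 or Coch. They were chosen by 2 thresholds. Col1a1, Col1a2, Col3a1 and Dcn together had to reach 1% of a barcode's unique molecular identifiers (UMIs, each standing for 1 captured transcript), and Rgs5 plus Coch had to reach 2 UMIs. The 470 Rgs5 Coch barcodes were 16.5% (exact binomial interval 15.2 to 17.9) of the 2846 P30 barcodes at 1% matrix share or more, 13.4% of all 3512 P30 barcodes, and part of a series of 4473 barcodes. The other 2376 matrix-rich P30 barcodes are the set they are compared with.

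The series profiled cells of aortic and mitral valves of C57BL/6J mice by Drop-seq, in which droplets capture single cells and the 3' ends of their transcripts are counted. It holds 1 P30 library and 1 library of postnatal day 7 (P7), with no treatment or genotype named. With 1 library per age no difference between barcodes or ages has a replicate check, no test was made, and all intervals are 95% and cover counting error only. How many animals went into a library is not given in the labels. The libraries carry different run names, so age and run cannot be told apart. The Rgs5 Coch barcodes held 1729638 UMIs in all and 3017.5 at the median, with 1448 genes detected, against 6700522 in all and 2417.5 at the median, with 1201 genes detected, in the other matrix-rich barcodes. Mitochondrial transcripts took 4.60% of UMIs against 4.39%. No barcode was shared by the 2 libraries.

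Valve interstitial cells are the fibroblast-like cells that make and maintain leaflet matrix. Rgs5 encodes a regulator of G protein signalling that shortens signals of G protein-coupled receptors and is a widely used marker of pericytes. Pericytes and vascular smooth muscle cells, together called mural cells, wrap small vessels and arteries, and they also carry the potassium channel genes Kcnj8 and Abcc9. Coch encodes cochlin, a secreted matrix protein best known from the inner ear.

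The promoters of the rule's genes and of a pair of class II major histocompatibility complex (MHC) genes that were higher in these barcodes are shown to set the sequences beside the levels. Each is the 250 bases before the gene's start in RefSeq, build GRCm38.p6, read 5' to 3' on the gene's strand. Capitals mark CTGATTGG, the inverted CCAAT element (Y box) known from MHC class II promoters, searched on both strands. CTGATTGG contains the inverted CCAAT motif, so the motifs overlap. Rgs5 lies at chr1:169655251-169655500 on the plus strand, Coch at chr12:51593091-51593340 on the plus strand, H2-Aa at chr17:34287824-34288073 on the minus strand and H2-Eb1 at chr17:34305617-34305866 on the plus strand.
Rgs5: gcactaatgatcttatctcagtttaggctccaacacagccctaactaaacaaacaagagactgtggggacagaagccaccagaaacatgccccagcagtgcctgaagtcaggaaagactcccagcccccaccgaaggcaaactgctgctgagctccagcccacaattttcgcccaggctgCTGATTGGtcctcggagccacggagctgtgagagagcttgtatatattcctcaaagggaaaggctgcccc
Coch: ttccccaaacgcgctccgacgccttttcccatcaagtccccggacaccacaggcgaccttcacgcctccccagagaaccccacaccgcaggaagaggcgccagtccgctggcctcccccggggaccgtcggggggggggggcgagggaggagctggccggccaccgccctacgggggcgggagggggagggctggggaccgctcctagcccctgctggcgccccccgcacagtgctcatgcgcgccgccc
H2-Aa: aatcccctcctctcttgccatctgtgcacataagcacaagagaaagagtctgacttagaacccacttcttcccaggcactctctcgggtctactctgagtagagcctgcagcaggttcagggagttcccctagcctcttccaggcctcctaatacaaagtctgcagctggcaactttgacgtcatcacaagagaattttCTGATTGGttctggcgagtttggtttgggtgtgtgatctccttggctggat
H2-Eb1: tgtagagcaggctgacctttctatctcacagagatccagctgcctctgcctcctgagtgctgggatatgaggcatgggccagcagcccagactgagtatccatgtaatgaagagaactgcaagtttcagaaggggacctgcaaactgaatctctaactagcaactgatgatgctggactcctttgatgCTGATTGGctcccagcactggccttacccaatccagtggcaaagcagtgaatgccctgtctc
The motif began 70 bases before the start in Rgs5, 51 in H2-Aa and 62 in H2-Eb1, and these letters were not in the Coch window. Among all 32851 promoters of the same length, 1258 (3.83%) held it on either strand, and 33.85% held CCAAT. Of the other genes looked up, Id4 held CTGATTGG, while Serpine2, Galnt14, H2-DMa, H2-DMb1, Kcnj8 and Abcc9 did not. Angpt1 and H2-Ab1 had no promoter entry and could not be searched. The CArG box, a motif of contractile genes, was in 1.47% of all promoters and in none of the 4 windows. These matches describe letters in a window and were not tied to any measurement of binding.

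Rgs5 and Coch chose these barcodes, so their own levels are a description. The barcodes had a median of 3 Rgs5 plus Coch UMIs and a highest value of 51. Exactly 2 such UMIs, just inside the threshold, were found in 160 barcodes. Just outside it, 343 matrix-rich barcodes had 1 UMI and 2033 had none. Rgs5 carried the selection, since 438 barcodes had at least 2 Rgs5 UMIs and 40 had at least 2 Coch UMIs. No Coch UMI was seen in 409 barcodes (87.0%), no Rgs5 UMI in 14 (2.98%), and both genes were seen in 47 (10%). Summed over barcodes, Rgs5 stood at 1270 CPM (counts per 1000000 UMIs of the group) in the Rgs5 Coch barcodes and 48.8 in the other matrix-rich barcodes, and Coch at 105 and 2.39. The matrix share ran from 1.02% to 9.23% with a median of 2.49%, against a median of 3.34% in the other matrix-rich barcodes. A matrix share of 1 to 1.2% was found in 22 Rgs5 Coch barcodes, and 12 barcodes with 2 or more UMIs missed the matrix threshold at 0.8 to 1%.

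Of the markers in the label, Id4 and Angpt1 were higher in these barcodes and Serpine2 was not. The matrix threshold fixes the interstitial part of the label in both sets, so it is described only. The 15 interstitial markers outside the rule, all measured, summed to 50046 CPM in the Rgs5 Coch barcodes and 60477 CPM in the other matrix-rich barcodes, with a list median of −0.19 (log2). Fmod, the proteoglycan fibromodulin, was called lower, at 292 CPM against 722, and Lum, which encodes lumican, was at 1763 against 1810. Id4, a helix-loop-helix protein that blocks DNA binding of other such factors, was at 172 CPM (Poisson interval 153 to 193) against 49.5 (44.4 to 55.2). Angpt1, the ligand that activates the endothelial receptor Tie2, was at 207 CPM (186 to 230) against 92.7 (85.5 to 100.3). For both genes the intervals of the sets did not overlap. Serpine2, a secreted inhibitor of thrombin and plasminogen activators, was at 151 CPM (133 to 170) against 187 (177 to 198), a log2 ratio of −0.31 (−0.51 to −0.12). Thinned to 500 UMIs per barcode, 7.95% of Rgs5 Coch barcodes and 2.48% of the others would show an Id4 UMI, and without thinning 31.1% and 10.3% did. Among 270 barcodes under 1% matrix share with at least 3 macrophage marker UMIs, at a median of 2130.5 UMIs, 1.11% had an Id4 UMI and 1.85% an Rgs5 UMI.

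Whether mural genes go with these barcodes was the question put to them. The potassium channel pair was modestly higher, by less than the 2-fold mark, and Myh11 and Des were nearly absent. Abcc9, the regulatory subunit of the vascular ATP-sensitive potassium channel, was at 46.3 CPM (36.7 to 57.6) in the Rgs5 Coch barcodes and 25.1 CPM (21.4 to 29.2) in the other matrix-rich barcodes. Kcnj8, its pore subunit, was at 30.1 CPM (22.5 to 39.4) against 20.7 (17.4 to 24.5). Their log2 ratios were 0.88 (0.48 to 1.28) and 0.54 (0.05 to 1.005), and neither was called. Notch3, a receptor of arterial smooth muscle, was at 6.36 CPM (3.17 to 11.4) against 7.76 (5.80 to 10.2). The Notch3 intervals overlapped, and the remaining mural genes were counted in single UMIs. Myh11, the myosin heavy chain of smooth muscle, had 3 UMIs in 3 of 470 barcodes, against 7 UMIs in 7 of 2376. Des, the muscle intermediate filament desmin, had 0 UMIs in the 470 barcodes, which allows a share of up to 0.782% of barcodes with a UMI (exact binomial), and 4 UMIs in the others.

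Summed, the 5 mural genes stood at 84.4 CPM (71.3 to 99.3) in the Rgs5 Coch barcodes and 55.2 CPM (49.7 to 61.1) in the other matrix-rich barcodes, a log2 ratio of 0.61 (0.33 to 0.89). At least 1 mural UMI was seen in 99 barcodes (21.1%) against 258 (10.9%), and thinned to 500 UMIs the shares were 4.52% and 2.54%. Kcnj8 and Abcc9 were seen together in 12 barcodes (2.55%) against 23 (0.968%). No Rgs5 Coch barcode held UMIs of 3 of the 5 genes, while 3 of the others did. Among 230 barcodes under 1% matrix share with at least 3 endothelial marker UMIs, the mural sum was 16.1 CPM (10.9 to 23.0). In barcodes with no endothelial marker UMI, 182 of the Rgs5 Coch barcodes and 962 of the others, the mural sum was 111 CPM (83.4 to 145) against 67.1 (56.4 to 79.4).

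**Figure D1:**
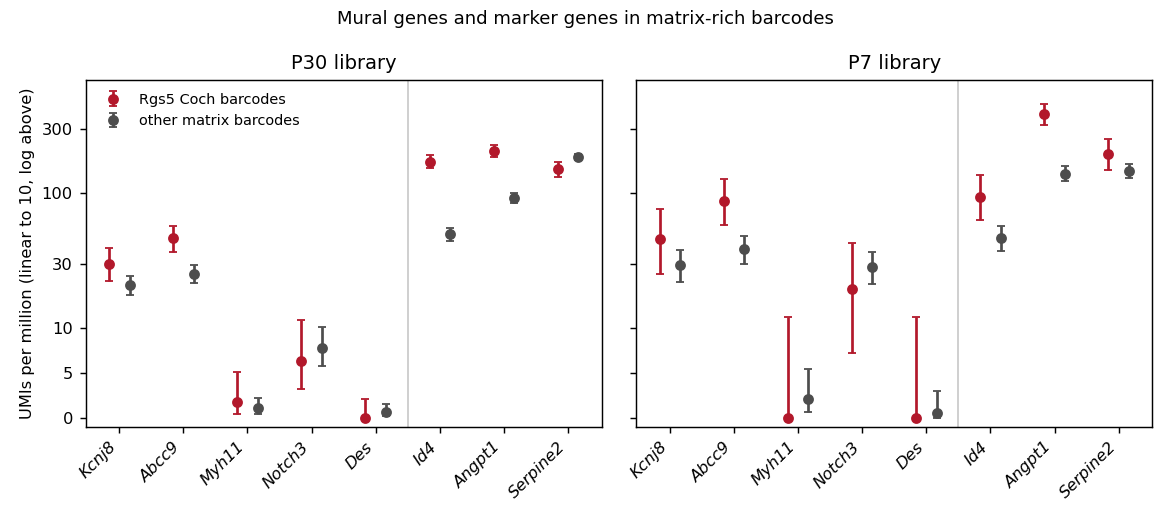
Levels of the 5 mural genes and of Id4, Angpt1 and Serpine2 in CPM (linear to 10, log above) in Rgs5 Coch barcodes (left point of each pair) and other matrix-rich barcodes, with 95% Poisson intervals, for the P30 library (left) and the P7 library (right). At P30, Abcc9 stood at 46.3 against 25.1 and Id4 at 172 against 49.5, while Myh11 and Des were near 0 in both sets.

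No further pericyte or contractile gene was called higher in the Rgs5 Coch barcodes. The 16 further pericyte and mural genes summed to 395 CPM in the Rgs5 Coch barcodes and 443 CPM in the others. Of 6 measured, none was called higher and 1 lower, and the list median was −0.23 (log2). The gene called lower was Cspg4, the NG2 proteoglycan of pericytes, at 18.5 CPM (12.7 to 26.1) against 39.1 (34.5 to 44.1). Pdgfrb, the receptor that recruits pericytes, was at 109 CPM against 131, and Higd1b was at 0 in the Rgs5 Coch barcodes. None of 10 measured contractile genes was called in either direction, with Tagln at 262 CPM (239 to 288) against 186 (176 to 197) and Acta2 at 109 against 125. The Tagln log2 ratio of 0.50 (0.34 to 0.65) was close to that of Kcnj8. A barcode with smooth muscle transcripts lay outside the matrix threshold. It was looked up after the values were seen and held 20 Myh11, 32 Acta2, 34 Tagln and 2 Rgs5 UMIs among 3129, with a matrix share of 0.128%.

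Across 6215 measured genes outside the rule, 63 (1.01%) were called higher and 92 (1.48%) lower in the Rgs5 Coch barcodes. A call required at least a 2-fold difference, an interval excluding equal levels, and at least 10 counts and 20 CPM in the higher set. The median log2 ratio over all measured genes was 0.06. The shares of 1.01% and 1.48% are the background for the counts of called genes in each P30 list. The genes named by size included Galnt14, H2-Ab1, Adamts19, Id4 and H2-Aa on the higher side, beside Dqx1 and Cxcl9, whose limits are given below. The lower side was led by genes of cartilage and bone. Macrophage genes were also among the lower ones, with UMIs of any 1 of them in at most 69 of the 2376 other barcodes.

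Galnt14, an enzyme that starts mucin-type O-glycosylation, was at 39.9 CPM (31.0 to 50.5) in the Rgs5 Coch barcodes and 7.01 CPM (5.15 to 9.33) in the other matrix-rich barcodes, a log2 ratio of 2.51. Its 69 UMIs came from 55 Rgs5 Coch barcodes, with at most 5 in 1 barcode. Adamts19, a secreted metalloprotease whose loss in mice leads to valve disease, was at 125 CPM (109 to 143) against 33.9 (29.6 to 38.6), a log2 ratio of 1.89. Both genes were therefore spread over many barcodes. The serine protease-like gene Prss35 was at 273 CPM against 103. The list also held the adhesion protein gene Opcml at 39.9 CPM against 11.0, the tubulin gene Tubb3 at 31.2 against 8.95, the reticulon gene Rtn1 at 47.4 against 15.1 and the SNARE-binding gene Stxbp6 at 116 against 41.9. For Dqx1 and the chemokine gene Cxcl9 the counts came almost wholly from 1 barcode each, which held 45 of 48 and 96 of 100 UMIs. Barcodes of mixed type had 3 or more UMIs of markers of other cell types, haemoglobin genes among them, and need not be doublets. They were 59.4% of the Rgs5 Coch barcodes and 58.5% of the others. Without them the log2 ratio of Dqx1 was −0.11 in place of 2.45. That of Cxcl9 was at most −0.88 in place of 2.01, with no UMI left in the Rgs5 Coch barcodes.

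**Figure D2:**
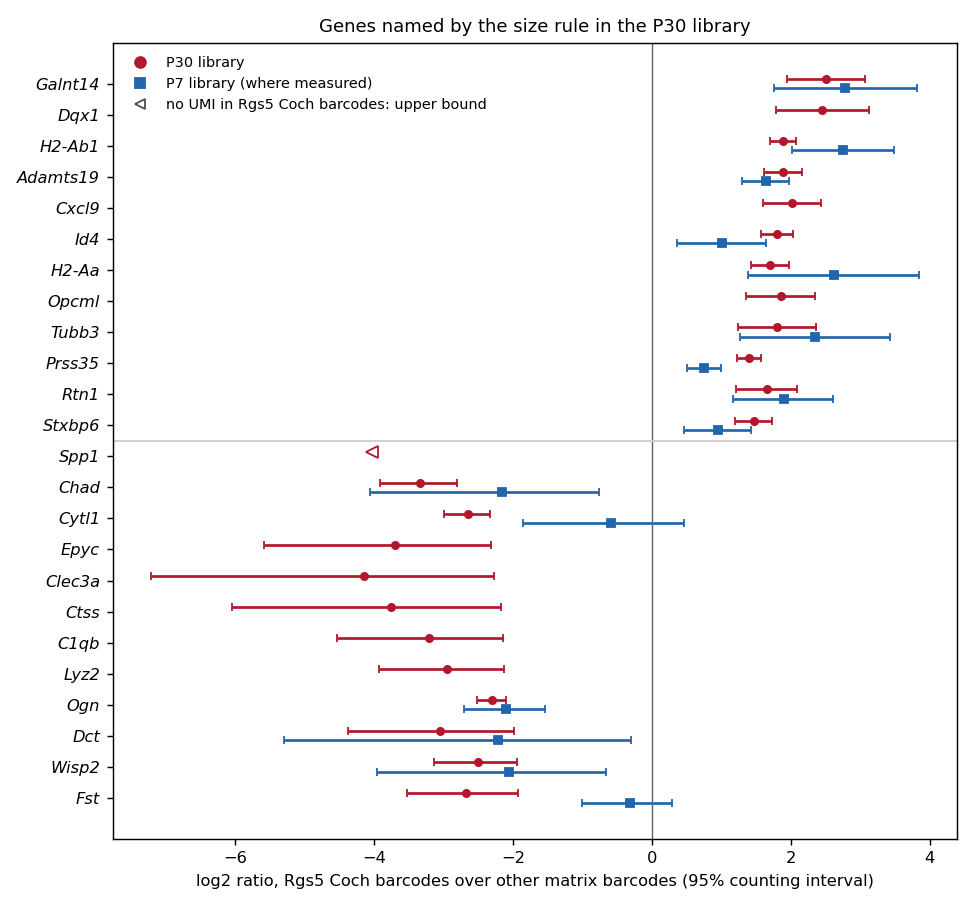
Log2 ratio of the level in Rgs5 Coch barcodes over other matrix-rich barcodes for the 12 genes per direction named by size in the P30 library (red circles), with the P7 value where measured (blue squares), and 95% counting intervals. The 9 higher and 6 lower genes measured at P7 lay on the same side of 0 in both libraries, with Galnt14 at 2.51 at P30 and 2.78 at P7. The open triangle is an upper bound for Spp1, with 0 UMIs in the Rgs5 Coch barcodes.

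Class II MHC genes, which present peptides from outside the cell and are classically expressed by professional antigen-presenting cells, were called higher throughout. This list was drawn up after H2-Ab1 and H2-Aa had been seen among the leading genes, so its direction is a description. All 6 measured genes were called higher, with a median log2 ratio of 1.57. H2-Ab1, a class II beta chain, was at 261 CPM (238 to 287) in the Rgs5 Coch barcodes and 70.6 CPM (64.4 to 77.2) in the other matrix-rich barcodes. Its partner chain H2-Aa was at 119 CPM against 36.6, and H2-Eb1 at 132 against 50.1. Cd74, the invariant chain that escorts class II molecules, was at 101 CPM against 43.4, and the peptide-loading genes H2-DMa and H2-DMb1 were at 22.0 against 6.57 and 23.1 against 8.51. At least 1 class II UMI was seen in 205 Rgs5 Coch barcodes (43.6%) and 413 others (17.4%), and thinned to 500 UMIs the shares were 19.5% and 5.82%.

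Macrophage transcripts were fewer in sum but not in the share of barcodes that held them. No macrophage marker UMI was seen in 90.2% of the barcodes of either set. Macrophage markers summed to 38.2 CPM (29.5 to 48.5) in the Rgs5 Coch barcodes and 203 CPM (193 to 214) in the other matrix-rich barcodes. All 4 measured, Lyz2 and the complement genes C1qa, C1qb and C1qc, were called lower. Of the 1362 macrophage marker UMIs in the other barcodes, 925 lay in the 392 deepest barcodes, and 137 of the 360 Lyz2 UMIs in 1 barcode. Under 2000 UMIs the marker sum was 105 CPM (58.9 to 174) against 61.8 (48.8 to 77.3), and without barcodes of mixed type the Lyz2 log2 ratio was 0.74 (−2.65 to 3.35). Cd163 was at 0 in the Rgs5 Coch barcodes, and Emr1, which encodes F4/80, had 1 UMI against 16. Without any barcode carrying a macrophage marker UMI, the class II genes stood at 629 CPM (589 to 670) in 424 Rgs5 Coch barcodes and 141 CPM (132 to 151) in 2144 others. That log2 ratio of 2.16 (2.02 to 2.29) was larger than the 1.61 over all barcodes. For scale, H2-Ab1 reached 4526 CPM in the 270 low-matrix barcodes with macrophage markers. Genes known as targets of interferon gamma, a list also drawn up after values were seen, had 4 of 6 measured members called higher. Over all measured genes 1.01% were called higher. Among them Cxcl10 was at 119 CPM against 54.2, the GTPase gene Iigp1 at 348 against 156 and the transcription factor gene Irf8 at 27.2 against 9.55. The other was Cxcl9, whose UMIs came almost wholly from 1 barcode and which changed sign without barcodes of mixed type. Ifng itself was at 0. The broader list of interferon response and class I MHC genes had 0 of 14 called, with a median log2 ratio of 0.22.

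Wnt pathway genes went both ways. Of 13 measured, 2 were called higher and 2 lower, around a list median of 0.12 (log2). The ligand gene Wnt16 was at 346 CPM (319 to 375) in the Rgs5 Coch barcodes and 146 CPM (137 to 156) in the other matrix-rich barcodes, and Lef1, a transcription factor of the pathway, at 20.2 against 7.46. The secreted Wnt binder Sfrp2 was at 78.6 CPM against 301, and Wisp2, a matricellular gene, had 26 UMIs against 571, a log2 ratio of −2.50. In a list of R-spondin signalling drawn up after values were seen, 3 of 4 measured genes were higher. Rspo3, a secreted enhancer of Wnt signals, was at 380 CPM against 174, its receptor gene Lgr4 at 64.2 against 24.3, and Rnf43, a ligase that removes Wnt receptors, at 20.2 against 6.12.

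Cartilage, tendon and bone genes were lower in the Rgs5 Coch barcodes, with 8 of 13 measured members called lower, none higher and a median log2 ratio of −1.76. Comp and Chad were also low in some clusters made up mostly of other barcodes, given below. Chad, which encodes chondroadherin, stood at 17.3 CPM (11.7 to 24.8) in the Rgs5 Coch barcodes and 174 CPM (165 to 185) in the other matrix-rich barcodes. Comp, cartilage oligomeric matrix protein, was at 152 CPM against 534. The secreted factor gene Cytl1 was at 46.8 CPM against 294. Rarer genes of the list went the same way. Clec3a, a cartilage lectin, had 2 UMIs against 137. Spp1, the bone matrix protein osteopontin, had 0 UMIs against 190 in the others, and with the group's floor of 3 counts in place of 0 its log2 ratio was at most −4.03.

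Proteoglycan genes parted, with 1 of 12 measured called higher and 4 lower. Versican (Vcan), the large hyaluronan-binding proteoglycan of loose valve matrix, was at 1533 CPM (1476 to 1593) in the Rgs5 Coch barcodes and 647 CPM (628 to 667) in the other matrix-rich barcodes. The small leucine-rich proteoglycan osteoglycin (Ogn) was at 115 CPM (99.6 to 132) against 565 (547 to 584). Omd was at 4.05 CPM against 23.6, Aspn at 155 against 316 and Epyc had 4 UMIs against 201. Thinned to 500 UMIs, 43.9% of Rgs5 Coch barcodes and 23.3% of the others would show a Vcan UMI, and 4.34% and 18.9% an Ogn UMI. The rule's own proteoglycan, Dcn, is not read here.

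In several other lists every called gene was lower, where 1.48% of all measured genes were called lower. The list of angiopoietin and VEGF family genes did not include Angpt1, which was called higher. Of its 9 measured genes 4 were lower, Angptl1, Angptl7, Figf, which encodes VEGF-D, and Flt1. Angptl7 was at 188 CPM in the Rgs5 Coch barcodes and 557 CPM in the other matrix-rich barcodes. Fibroblast genes with immune roles had 3 of 11 lower, among them complement C3 at 10.4 CPM against 34.8 and Igfbp3 at 96.6 against 291. Other collagens had 3 of 14 lower, with Col11a1 at 25.4 CPM against 70.1. In each of these groups most measured genes were not called. Imprinted growth genes had 3 of 9 lower, H19, Igf2 and Cdkn1c, and Igf2 was at 6.36 CPM against 33.9. The activin binder Fst was at 8.67 CPM against 55.1, and the melanin enzyme gene Dct at 4.05 against 33.4, where 163 of the 224 UMIs came from 1 other barcode. Id4, called higher above, was not part of the list of 13 further BMP and Id genes measured. In that list the BMP binder Chrdl1 was the only gene called, at 24.9 CPM against 104. No gene was called among 13 TGF-beta, 10 further RGS and G protein, 5 Notch, 15 valve mesenchyme factor, 16 guidance and adhesion, 18 immediate early, 9 basement membrane and 5 cell cycle genes measured.

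**Figure D3:**
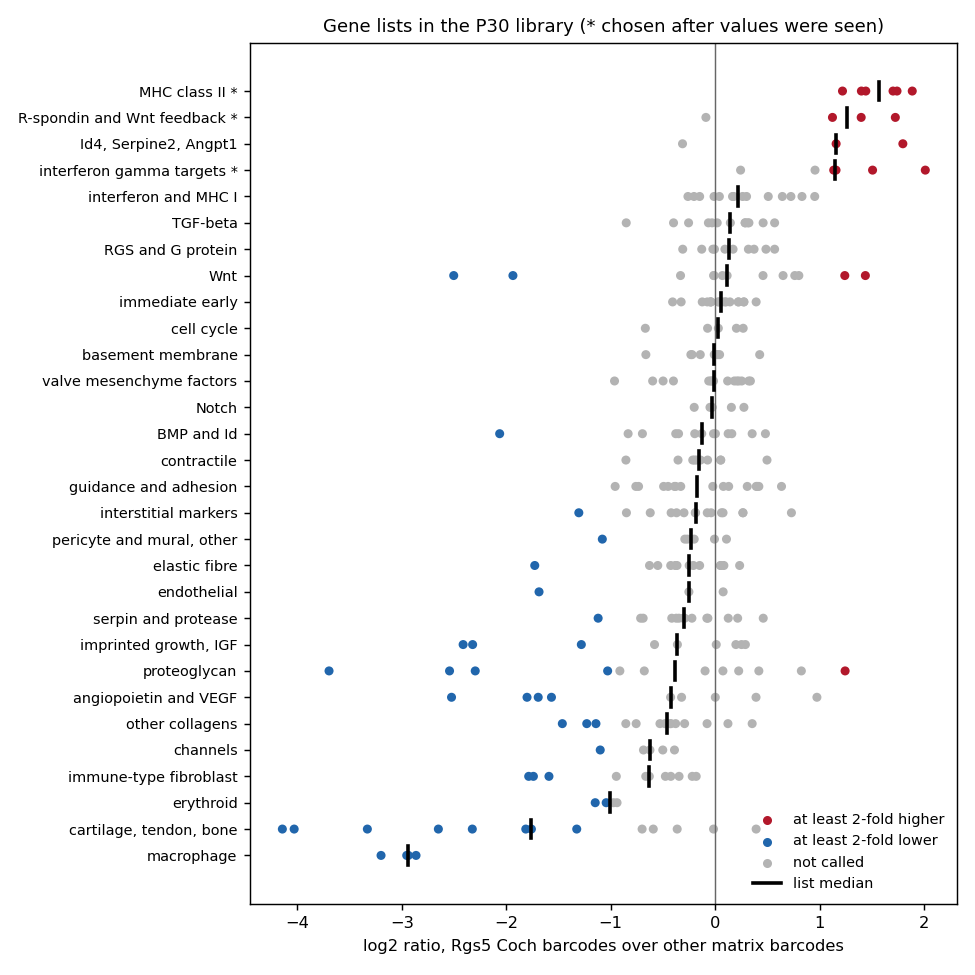
Log2 ratios of measured genes in each list, Rgs5 Coch barcodes over other matrix-rich barcodes at P30, with list medians as black bars and called genes in red (higher) or blue (lower). The 6 class II MHC genes lay from 1.22 to 1.89, the 4 macrophage genes from −3.20 to −2.86, and Spp1 is drawn at its bound of −4.03.

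No measured marker of endothelial, blood, glial or heart muscle cells was called higher in the Rgs5 Coch barcodes at P30, but few were measured. Measured were 3 of 12 endothelial, 4 of 5 erythroid, 1 of 9 glial and 1 of 10 heart muscle markers. No lymphocyte, fat or mesothelial marker had enough counts to be measured, so none of those could be called. Endothelial markers summed to 379 CPM (350 to 409) in the Rgs5 Coch barcodes and 474 CPM (458 to 491) in the other matrix-rich barcodes, with Cdh5, Emcn and Kdr at 0 in the Rgs5 Coch barcodes. Lymphocyte markers summed to 2.89 CPM against 3.13, and melanocyte markers to 6.94 against 49.5. Haemoglobin and other erythroid genes summed to 1688 CPM against 3424. The 2 Rgs5 Coch barcodes over 20000 UMIs held 3.81% of the group's UMIs. The part of these transcripts in the gene differences was not tested beyond the comparisons without macrophage marker barcodes and without barcodes of mixed type.

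Rgs5 and Coch were then read against each other, each in barcodes chosen by the other gene. Coch was at 55.8 CPM in the 438 matrix-rich barcodes with at least 2 Rgs5 UMIs and 9.24 CPM in the 2063 with none, a log2 ratio of 2.59 (2.09 to 3.11). A Coch UMI was seen in 29 of the 438 barcodes (6.62%) and in 30 of the 2063 (1.45%), and thinned to 500 UMIs the shares were 1.71% and 0.512%. Rgs5 was at 599 CPM in the 40 barcodes with at least 2 Coch UMIs and 288 CPM in the 2769 with none, a log2 ratio of 1.06 (0.77 to 1.33). Each gene was higher in barcodes chosen by the other, yet most barcodes with Rgs5 had no Coch UMI. Median depths were 3047 UMIs against 2389 for the Rgs5 split and 3978.5 against 2524 for the Coch split. Per barcode, on a log scale of depth-scaled UMIs, the Pearson correlation of Rgs5 with Coch was 0.10 over 2846 barcodes of 1 library.

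The 6 genes most like Rgs5 by the same measure were Vcan at 0.28, H2-Ab1 at 0.25, the sodium pump subunit gene Atp1b1 at 0.23, Postn at 0.22, Id4 at 0.22 and Dbi at 0.22, among 5990 genes with a UMI in at least 5% of the barcodes. Those most like Coch were Wnt16 at 0.17, Adamts19 at 0.15, H2-Ab1, H2-Eb1, Lgmn and Bok, the last 4 at 0.13. All of these values are weak, and the barcodes share 1 library and differ in depth. Levels of Id4 and Adamts19 were also read in Rgs5 Coch barcodes split by Coch. Both rule genes chose these barcodes, so the split is a description. In Rgs5 Coch barcodes with no Coch UMI, Id4 was at 185 CPM (164 to 209) and Adamts19 at 110 (93.9 to 129). In the 47 barcodes with both genes, Id4 was at 112 CPM (75.1 to 161) and Adamts19 at 209 (157 to 272). These 47 were deeper, at a median of 3985 UMIs against 2973. The share with an Id4 UMI ran the other way from its CPM, at 42.6% of the 47 against 29.8%. For Adamts19 the shares were 53.2% and 23.5%.

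Rgs5 UMIs are a value of the rule, so levels along them are given as a description. Id4, H2-Ab1, Adamts19 and Ogn were also named from the rule's own comparison. In matrix-rich barcodes with 0, 1, 2, 3 and 4 or more Rgs5 UMIs, Id4 was at 44.8, 79.8, 112, 192 and 207 CPM. H2-Ab1 was at 65.7, 114, 118, 215 and 352 CPM, and Adamts19 at 30.3, 68.5, 84.3, 124 and 139. Ogn went down along the same steps, at 605, 318, 131, 109 and 101 CPM. The mural sum was at 51.6, 73.2, 103, 67.7 and 84.3 CPM, lowest at 0 Rgs5 UMIs and with no steady order above that. Median depth rose over these steps too, at 2389, 2587, 2807.5, 2871.5 and 3479.5 UMIs. Within Rgs5 Coch barcodes under 2000 UMIs, Id4 was at 232 CPM (159 to 325) against 60.2 (47.4 to 75.5) in other matrix-rich barcodes of that depth, and in the deepest barcodes, with medians of 5414 and 5214.5 UMIs, it was at 167 (142 to 195) against 45.1 (36.8 to 54.6).

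**Figure D4:**
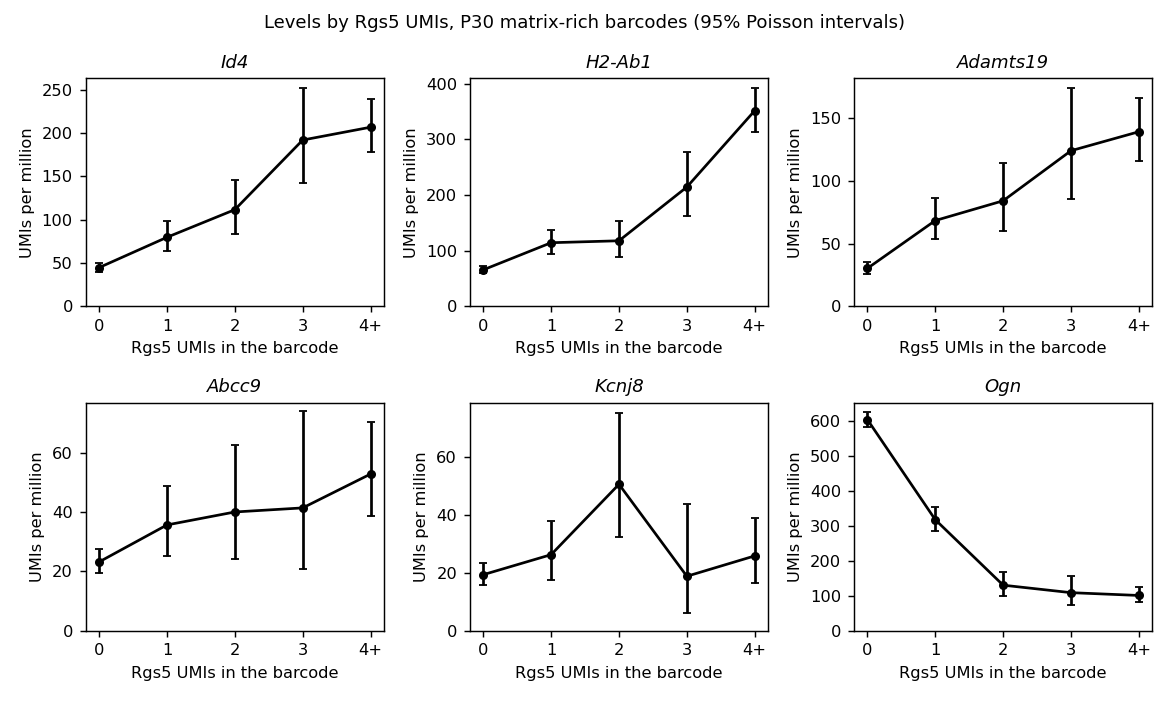
Levels in CPM with 95% Poisson intervals in P30 matrix-rich barcodes grouped by their Rgs5 UMIs, from 0 to 4 or more. Id4, H2-Ab1 and Adamts19 were lowest at 0 and highest at 4 or more Rgs5 UMIs, Ogn ran the other way (605 at 0 and 101 at 4 or more), and Kcnj8 peaked at 2.

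The Rgs5 Coch barcodes did not all show the genes named above, and at this depth a gene without a UMI may still be expressed. Of the 5 genes Id4, Angpt1, Adamts19, Galnt14 and H2-Ab1, a set put together after their values were seen, at least 2 had a UMI in 175 Rgs5 Coch barcodes (37.2%) and 204 others (8.59%), and none did in 147 (31.3%) and 1563 (65.8%). Thinned to 500 UMIs, the shares with at least 2 were 5.61% and 0.893%. Matrix share is a value of the rule, so levels along it are given as a description. Above and at or below the median share lay 235 barcodes each, with median depths of 3104 and 2917 UMIs. H2-Ab1 was at 166 CPM (140 to 195) above the median and 363 (324 to 407) at or below it, and Coch at 54.9 against 159. Comp was at 252 CPM (220 to 287) above and 45.4 (32.2 to 62.4) at or below, and Ogn at 196 against 28.7. Kcnj8 was close between these sets, at 28.0 CPM (18.1 to 41.3) and 32.3 (21.3 to 47.0).

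Clustering the matrix-rich P30 barcodes without 536 genes, the rule genes and the listed and named ones, gave 14 clusters, and the Rgs5 Coch barcodes were spread unevenly over them. Cluster 3, led by Sele, Tesc and Mal, held 159 of them, 44.9% (39.7 to 50.3) of its 354 barcodes. Cluster 7, led by the interferon-induced genes Rsad2 and Igtp, held 38 of 111 barcodes (34.2%), and cluster 5, led by Car3, Bdnf and Nes, held 61 of 259 (23.6%). The lowest shares among clusters of over 200 barcodes were 4.87% in cluster 4 and 5.99% in cluster 2. Id4 and Angpt1 stood highest in cluster 3, at 169 and 287 CPM, whereas Serpine2 was highest in cluster 5, at 587 CPM. H2-Ab1 was not highest in cluster 3, where it was at 284 CPM, against 447 CPM in cluster 7. It was highest in cluster 13, at 1502 CPM, where 1 of 16 barcodes was a Rgs5 Coch barcode. Cluster 2 had the highest Abcc9 level, at 61.6 CPM, with Rgs5 at 82.6 CPM. Among clusters of over 200 barcodes, Comp and Chad stood highest in clusters 0 and 4. Comp was at 1111 and 1036 CPM there, and Chad at 397 and 370. In clusters 2 and 5 Comp was at 140 and 107 CPM, and Chad at 5.06 and 6.75.

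Clusters 1, 3 and 5 held the most Rgs5 Coch barcodes, 80, 159 and 61, and inside them the differences mostly kept their direction. Id4, H2-Ab1, Galnt14 and Ogn were named from these same barcodes, so their values are a description. Angpt1 was under 2-fold in each, at log2 ratios of 0.57 (0.02 to 1.09), 0.548 (0.235 to 0.864) and 0.14 (−0.73 to 0.95). Galnt14 was at 1.95 (0.10 to 3.75), 1.42 (0.48 to 2.45) and 1.36 (−0.34 to 3.02). Id4 had log2 ratios of 1.48 (0.91 to 2.03), 0.89 (0.47 to 1.33) and 0.47 (−0.15 to 1.07) for Rgs5 Coch over other barcodes of the same cluster. H2-Ab1 had 1.57, 1.08 and 2.05, and Ogn −2.28, −2.13 and −2.15, with intervals excluding 0 in each. Comp had −1.48 (−2.73 to −0.45), −1.13 (−1.73 to −0.55) and −0.72 (−1.52 to −0.000). For Kcnj8 the ratios were 0.53 (−0.83 to 1.73), −0.29 (−1.32 to 0.73) and 1.07 (−0.27 to 2.34), and for Abcc9 0.78 (−0.37 to 1.82), 0.27 (−0.47 to 1.04) and 0.70 (−0.57 to 1.90). No within-cluster interval of either channel gene excluded equal levels.

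**Figure D5:**
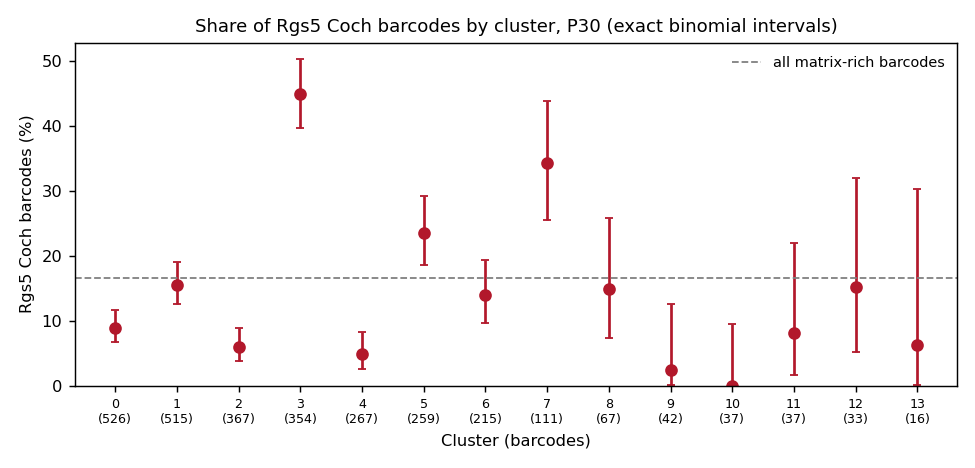
Share of Rgs5 Coch barcodes in each of 14 clusters of P30 matrix-rich barcodes, with exact binomial intervals and the number of barcodes in brackets. The dashed line is the share over all of them, 16.5%, and clusters 3 and 7 stood highest at 44.9% and 34.2%.

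The P7 library was not used by the rule as written, and the same thresholds were applied to it. They were met by 80 of 722 matrix-rich barcodes (11.1%, 8.88 to 13.6), at a median of 3562.5 UMIs, against 2146.5 UMIs in the other 642. Coch was nearly absent, with 1 UMI in the 80 barcodes and 5 in the others, so these barcodes rest on Rgs5 alone. Of 6587 measured genes, 236 (3.58%) were called higher and 193 (2.93%) lower, and the median over all of them was −0.02 (log2). Of the 12 genes named as higher at P30, 9 were measured at P7, 9 lay on the same side and 7 were called. Of the 12 named as lower, 6 were measured, 6 lay on the same side and 4 were called. Of all 63 called higher at P30, 38 were measured at P7 and 22 were called higher. Of the 92 called lower, 63 were measured, 41 were called lower and 2 higher.

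Galnt14, Adamts19, Angpt1, Id4 and class II genes were called higher at P7 too, and Ogn and Chad lower, while other P30 calls did not recur. Galnt14 was at 62.1 CPM (37.4 to 97.0) in the 80 barcodes and 9.05 CPM (5.27 to 14.5) in the others, Adamts19 at 373 (307 to 447) against 120 (105 to 136) and Angpt1 at 389 (322 to 465) against 141 (124 to 159). Id4 was at 94.8 CPM (63.5 to 136) against 46.8 (37.6 to 57.7), from 11 of the 80 barcodes (13.75%, 7.07 to 23.3) against 9.66% (7.48 to 12.2) of the others. Its log2 ratio of 1.02 became 0.79 (0.07 to 1.46), under 2-fold, without barcodes holding macrophage or lymphocyte marker UMIs, and the 24 shallowest Rgs5 Coch barcodes, under 2000 UMIs, had no Id4 UMI. The 6 class II MHC genes summed to 294 CPM (236 to 361) against 45.2 (36.1 to 56.0), and in barcodes with no macrophage marker UMI to 300 (239 to 371) against 41.2 (32.2 to 52.0). Ogn was at 88.2 CPM against 376 and Chad at 13.1 against 58.0. Serpine2 was at 196 CPM (150 to 252) against 148 (131 to 166), not called. Vcan was at 2003 CPM against 1261, a log2 ratio of 0.67 (0.54 to 0.80), and was not called. None of the 2 measured interferon gamma targets was called, and Cxcl10 had 5 UMIs against 27. Macrophage markers summed to 55.5 CPM (32.4 to 88.9) against 38.9 (30.5 to 48.9), with overlapping intervals.

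At P7 Abcc9 was called higher and Kcnj8 was not, and Myh11 and Des were again near 0. The 5 mural genes summed to 154 CPM (113 to 204) in the 80 barcodes and 98.5 CPM (84.8 to 114) in the other matrix-rich barcodes, a log2 ratio of 0.64 (0.15 to 1.11). Abcc9 was called higher, at 88.2 CPM (58.1 to 128) against 38.3 (29.99 to 48.3), and Kcnj8 was at 45.7 against 29.3. In barcodes with no endothelial marker UMI, 30 of the Rgs5 Coch barcodes and 309 of the others, the mural sums were 154 CPM (77.1 to 276) against 133 (106 to 165). Myh11 and Des had 0 UMIs in the 80 barcodes, and Acta2 was called lower, at 55.5 CPM (32.4 to 88.9) against 160 (142 to 179). Beside these values, 7 of 11 measured cell cycle genes were called higher at P7, with sums of 1591 CPM against 706, and erythroid genes summed to 23693 CPM against 7651. For the erythroid gene Hbb-bs a large part of the UMIs lay in the barcode with most of them. Its thinned share of barcodes was lower in the Rgs5 Coch barcodes than in the others, as given below. The part of cell cycle and erythroid genes in the P7 results was not tested.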

How the data were processed

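Valve cells of 1 P30 and 1 P7 library were used, grouped by the age label. The authors deposited whole-number UMI counts per gene and barcode, not normalized, and these were used as deposited. Their normalized tables equal the counts scaled per barcode and were not used. The submitters' processing notes name Bowtie2 2.2.7 and mm10, and neither counting program nor annotation is named there. Adgre1 was matched as Emr1, a synonym in RefSeq. 

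Counts were summed over barcodes and divided by the summed UMIs (CPM). Levels carry exact Poisson intervals, shares exact Clopper-Pearson intervals, and ratios the exact binomial interval of the group's part of a gene's total, all at 95%. A gene without a count was set at a floor of 3 counts. Genes without 10 counts and 20 CPM in the higher group were not measured. UMI totals per barcode ran from 750 to 41748 in the Rgs5 Coch barcodes and from 687 to 19235 in the others. Thinned shares are expected values over all thinnings to 500 UMIs. No doublet caller was run, and barcodes with 3 or more UMIs of endothelial, macrophage, lymphocyte, erythroid or melanocyte markers were left out as an alternative. The ratio code was tested on simulated data. Clusters used scanpy 1.11.5 and leidenalg 0.10.2, with 2000 variable genes, 30 components, 15 neighbours and resolution 0.8. Other tools were python 3.11.15, numpy 2.4.6, pandas 2.3.3 and scipy 1.17.1. Coordinates of promoters are from RefSeq.

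Genes were named as members of lists, as the 12 per direction at least 2-fold apart whose interval bound lay farthest from equal levels (no rule, mitochondrial, ribosomal protein, haemoglobin or unnamed genes), and as the 6 most correlated with Rgs5 and with Coch. The members and lists were chosen with earlier results of these data known. Alternatives changed the UMI and matrix thresholds, barcodes kept, depth, comparison set, scaling and low-count filter.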

Additional observations from a re-analysis of the deposited data

Results flagged for a closer look

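The adult beta globin genes of red blood cells differed in opposite directions at the 2 ages, and the difference between the ages was not tested. Hbb-bs had a log2 ratio of −1.04 in Rgs5 Coch barcodes over other matrix-rich barcodes at P30, with 537 CPM against 1107, and of 1.62 at P7, with 6391 CPM against 2077. Hbb-bt had a log2 ratio of −1.15 at P30, with 312 CPM against 690, and of 1.78 at P7, with 5555 CPM against 1623. The barcode with most Hbb-bs UMIs held 245 of 929 in the Rgs5 Coch barcodes at P30 and 875 of 1956 at P7. Thinned to 500 UMIs, an Hbb-bs UMI would show in 11.6% of Rgs5 Coch barcodes and 15.2% of others at P30, and in 39.0% and 44.3% at P7.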

How the results depend on the processing

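The number of Rgs5 Coch barcodes was 310 with at least 3 Rgs5 plus Coch UMIs and 191 without barcodes of mixed type, which removed 59.4% of them and 58.5% of the others. Genes called higher and lower were 197 and 148 without barcodes of mixed type, 31 and 40 with every barcode thinned to 500 UMIs, 234 and 303 without a low-count filter, 25 and 41 at 30 counts and 50 CPM, and 154 and 174 when at least 2 Coch UMIs alone chose 40 barcodes, an alternative chosen after seeing the data. The other alternatives gave 55 to 83 genes higher and 79 to 119 lower. Of the 63 and 92 genes, 38 and 51 were also called without barcodes of mixed type. Thinning and the stricter filter leave fewer counts, and elsewhere the cause was not tested. The mural log2 ratio was 0.19 (−0.73 to 0.98) by Coch alone and 0.47 (−0.04 to 0.95) without barcodes of mixed type, and lay from 0.51 to 0.84 under the others, all with intervals above 0. The Coch ratio by Rgs5 was 1.60 thinned to 500 UMIs and 3.20 at a matrix share of 2%, and the Rgs5 ratio by Coch was 0.92 (−0.09 to 1.78) thinned. Dqx1, Cxcl9 and Lyz2 changed sign without barcodes of mixed type, to −0.11, at most −0.88 and 0.74, and Dqx1 and Cxcl9 by Coch alone, to −0.88 and at most −0.57. Id4 was at 0.46 by Coch alone. No paired analysis was possible because each age has 1 library. Genes with few UMIs, such as Myh11 and Des, cannot be ranked at this depth.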
